A study of Sus scrofa with 2 samples.

Results

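Double-stranded RNA sensors, with the adaptors and kinases that carry their signal, were examined in pig granulosa cells. The group holds 9 genes: the sensors DDX58, DHX58, IFIH1, TLR3 and EIF2AK2, the adaptors MAVS and TICAM1, and the kinases TBK1 and IKBKE. They were chosen by name, as genes that can respond to a small interfering RNA (siRNA) duplex, with earlier results of these data known. Of the 34570 entries in the deposited tables, 7 carried the symbol of one of the 9 genes. TICAM1 was found through its NCBI gene ID, which made 8 entries, and 6 of the 8 had a value above 0. No entry carried the symbol or the gene ID of EIF2AK2. An entry named PKR, the usual name of the EIF2AK2 protein, is described beside the group and is not counted in it, since the reference table does not link that name to the gene.

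Granulosa cells are the hormone-producing somatic cells around the oocyte of a follicle. The cells came from the ovaries of female Chinese Erhualian pigs. The SMAD4-siRNA group received an siRNA against SMAD4, the SMAD protein on which both TGF-beta and BMP receptors rely. The NC-siRNA group, called control siRNA below, received a control siRNA. Each group is 1 library made from the pooled RNA of 3 individuals, so there are no replicates, and every difference is one between 2 libraries. The labels do not say whether the same animals gave both pools. Cells of both libraries received an siRNA, so neither shows the sensors in cells without a duplex. The dose, the duration and the sequence of each siRNA, and the age of the animals, were not stated in the labels used here.

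Cells recognise double-stranded RNA because viruses make it. In the cytosol it is bound by helicases of the RIG-I-like family: RIG-I (gene DDX58), MDA5 (IFIH1) and LGP2 (DHX58). RIG-I and MDA5 carry CARD domains through which they activate MAVS, an adaptor on mitochondria, whereas LGP2 has no such domain and tunes the activity of the other helicases. In endosomes double-stranded RNA is bound by TLR3, which signals through TRIF (gene TICAM1). Both routes reach the kinases TBK1 and IKK-epsilon (gene IKBKE), which activate the transcription factors IRF3 and IRF7 and so switch on interferon genes. PKR halts translation by phosphorylating the initiation factor eIF2 alpha when it binds double-stranded RNA. Several sensors are themselves induced by interferon.

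Values are reads per kilobase scaled by the upper quartile of each library (upper-quartile RPKM), so levels are per length. A level is that of the listed entry. How fully reads were assigned to each gene was not tested, and this limits every comparison of levels between genes. The values imply at least 17394711 reads on genes in the SMAD4 siRNA library and at least 17680952 in the control siRNA library. Each range in parentheses is an exact 95% counting interval, which leaves out how animals and transfections vary. SMAD4 had a value of 47.9 in the SMAD4 siRNA library, against 85.0 in the control siRNA library, a ratio of 0.563 (0.497 to 0.639). Of 10 granulosa markers, 8 had a value, with GATA4 at 774 in the SMAD4 siRNA library and 748 in the control siRNA library. FOXL2 was at 146 in the SMAD4 siRNA library and 132 in the control siRNA library, while AMH and CYP19A1 were listed at 0 in both. FSHR, the follicle-stimulating hormone receptor that defines the cell type, was at 3.48 in the SMAD4 siRNA library, on 7 reads, and 4.93 in the control siRNA library, on 9 reads. HSD17B1 was at 18.0 in the SMAD4 siRNA library, on 17 reads, and 9.31 in the control siRNA library, on 8 reads. Its ratio of 1.93 had an interval from 0.789 to 5.17, which includes 1. INHBA was at 868 in the SMAD4 siRNA library and 663 in the control siRNA library, a ratio of 1.31 (1.22 to 1.41). FST was at 556 and 604 in that order, INHA at 150 and 178, and NR5A2 at 123 and 131, with intervals that include 1. The stroma gene COL3A1 was far higher, at 28474 in the SMAD4 siRNA library and 37062 in the control siRNA library.

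DDX58 and DHX58 were higher in the SMAD4 siRNA library, TLR3 and IKBKE were higher by less, and MAVS was slightly lower. One member, DDX58, was past the 2-fold threshold of a log2 ratio of 1 on the scale of value + 1, and 0 members were lower by as much. A mean value of 1 or more was reached by 16609 genes, called the genes tested, of which 7.17% were past 2-fold on the higher side and 6.68% on the lower side. Among the 9664 of them with at least 100 reads over both libraries, 1.32% were higher and 1.12% were lower. DDX58 is one of these more deeply read genes.

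**Figure D1:**
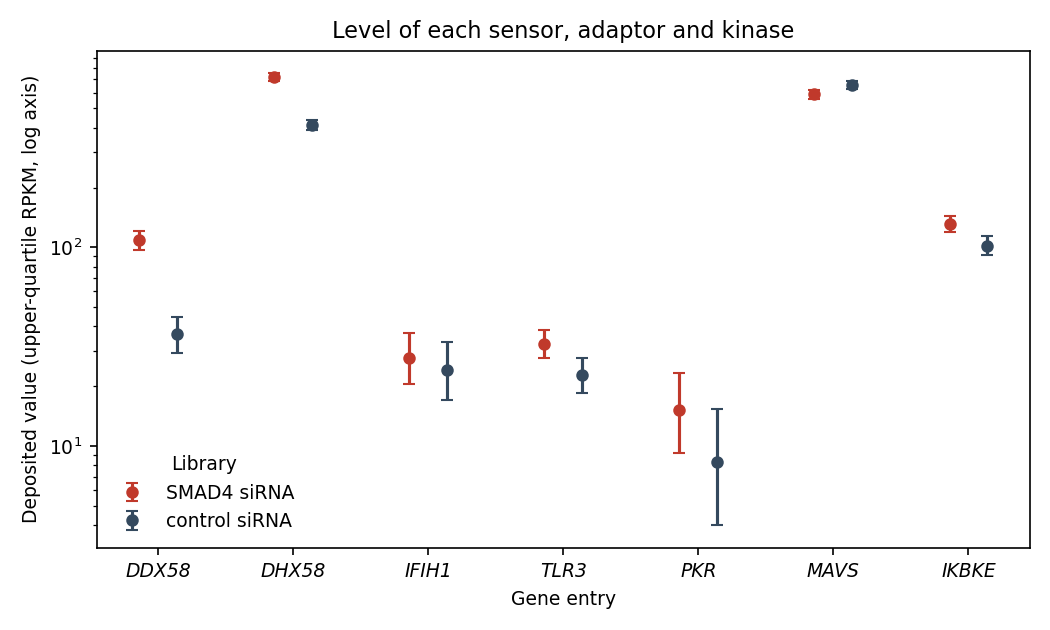
Level of each entry above 0 (upper-quartile RPKM, log axis) in the SMAD4 siRNA library (red, left of each pair) and the control siRNA library (dark blue, right), 1 library each; bars are exact 95% Poisson intervals of the reads. The DDX58 intervals lie apart, from 96.6 to 121 in the SMAD4 siRNA library and from 29.4 to 44.8 in the control siRNA library, and those of IFIH1 overlap.

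Of the cytosolic helicases, DDX58 (RIG-I) stood furthest apart. RIG-I binds short duplexes and RNA with triphosphate ends. DDX58 had a value of 108 in the SMAD4 siRNA library (301 reads or more), against 36.5 in the control siRNA library (92 reads or more). This gives a ratio of 2.97 (2.35 to 3.79), or 1.55 as the log2 ratio of value + 1. Only 38 of the 9664 genes with at least 100 reads, or 0.393%, had a higher log2 ratio.

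DHX58 (LGP2) had by far the highest level of the helicases in both libraries. Its value was 717 in the SMAD4 siRNA library (1886 reads or more) and 413 in the control siRNA library (986 reads or more). The ratio was 1.74 (1.61 to 1.88), under 2-fold, and 2.26% of the genes with at least 100 reads had a higher log2 ratio. IFIH1 (MDA5, the sensor of long duplexes) was close to equal in value and had few reads. It had a value of 27.9 in the SMAD4 siRNA library and 24.2 in the control siRNA library, on at least 47 and 37 reads in that order, and a ratio of 1.15 (0.734 to 1.83). That interval includes 1 and reaches 1.83, so a difference in IFIH1 was not detectable at these smallest reads, and it would be narrower if the true reads were more.

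The mix of values of the helicase entries differed between the libraries. DHX58 made up 84.0% of the summed values of the 3 helicases in the SMAD4 siRNA library and 87.2% in the control siRNA library. For DDX58 the share was 12.7% in the SMAD4 siRNA library and 7.71% in the control siRNA library. IFIH1 held 3.27% in the SMAD4 siRNA library and 5.11% in the control siRNA library. None of the 3 values was itself lower in the SMAD4 siRNA library, so a smaller share here is not a lower level. Set against each other per length, DDX58 stood at 3.89 times IFIH1 in the SMAD4 siRNA library and at 1.51 times in the control siRNA library. The counting intervals of the DDX58 and IFIH1 ratios did not overlap.

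TLR3, the endosomal receptor, was low in both libraries and somewhat higher after SMAD4 siRNA. It had a value of 32.7 in the SMAD4 siRNA library and 22.7 in the control siRNA library, on at least 157 and 99 reads in that order. The ratio was 1.44 (1.11 to 1.87), and 5.67% of the genes with at least 100 reads had a higher log2 ratio. Its adaptor gene TICAM1 was listed at 0 in both libraries.

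The entry named PKR rested on few reads. Its value was 15.2 in the SMAD4 siRNA library (20 reads or more) and 8.34 in the control siRNA library (10 reads or more). The ratio was 1.82, with an interval from 0.811 to 4.35 that includes 1.

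MAVS, the adaptor shared by RIG-I and MDA5, was on the lower side. It had a value of 589 in the SMAD4 siRNA library and 658 in the control siRNA library, from at least 1617 and 1640 reads in that order. The ratio was 0.895 (0.835 to 0.960), and 63.5% of the genes with at least 100 reads had a higher log2 ratio. With both libraries rescaled to the same sum the ratio was 0.972 (0.907 to 1.04), an interval that includes 1.

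Of the kinases, IKBKE was measured and TBK1 was not. IKBKE (IKK-epsilon, the inducible relative of TBK1) had a value of 131 in the SMAD4 siRNA library (456 reads or more), against 102 in the control siRNA library (322 reads or more). The ratio was 1.29 (1.11 to 1.49), with 9.86% of the genes with at least 100 reads higher in log2 ratio. TBK1, which is present in most cell types, was listed at 0 in both libraries. In all 7482 of 22826 mRNA entries, or 32.8%, were listed at 0 in both, among them FLNA and POR, which most cells use. A listed 0 for TBK1 or TICAM1 is therefore no measure of its expression.

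**Figure D2:**
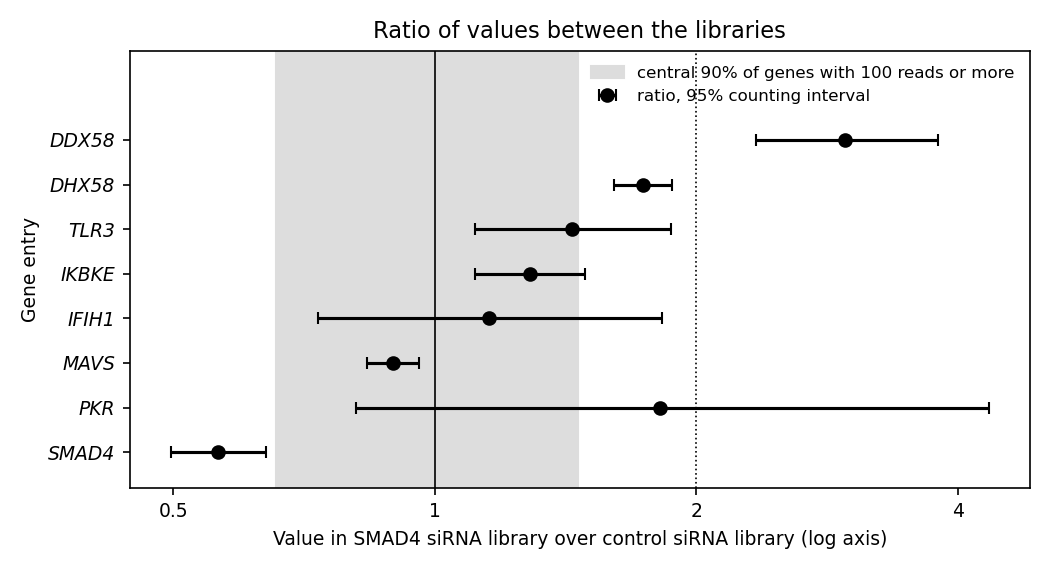
Ratio of values, SMAD4 siRNA library over control siRNA library (log axis), for each measured member, the PKR entry and SMAD4, with exact 95% counting intervals; the dotted line marks 2-fold. The grey band holds the central 90% of genes with at least 100 reads, from 0.656 to 1.46 on the scale of value + 1. DDX58 at 2.97 and DHX58 at 1.74 lie to its right with their whole intervals, and MAVS at 0.895 lies inside it.

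Over the 6 measured members the median log2 ratio was 0.43, beside -0.05 over all genes tested. As the members were chosen with earlier results of these data known, the comparisons with all genes describe the group and do not test it. The log2 ratio was above 0 for 5 of the 6, which was so for 45.5% of all genes tested and 42.1% of those with at least 100 reads. A counting interval lay wholly above 1 for 4 members (DDX58, DHX58, TLR3 and IKBKE), where 12.7% of all genes tested and 17.6% of those with at least 100 reads had one. It lay wholly below 1 for MAVS alone, where 21.5% of all genes tested and 32.4% of those with at least 100 reads had one. The ratios also differed among the members beyond counting error. Of 15 pairs of members, 9 had intervals that did not overlap, and these include all 5 pairs with DDX58 and 4 of the 5 with MAVS. The intervals of TLR3, IKBKE and IFIH1 overlapped one another.

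The order of levels changed at the top. In the SMAD4 siRNA library DHX58 came first and MAVS second, followed by IKBKE, DDX58, TLR3 and IFIH1. In the control siRNA library MAVS came first and DHX58 second, followed by IKBKE, DDX58, IFIH1 and TLR3. MAVS stood at 0.821 times DHX58 in the SMAD4 siRNA library and at 1.59 times in the control siRNA library. Neighbours in this order had overlapping Poisson intervals for IKBKE and DDX58 and for TLR3 and IFIH1 in the SMAD4 siRNA library. In the control siRNA library the intervals overlapped for DDX58 and IFIH1 and for IFIH1 and TLR3.

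Set against mRNA entries with a value above 0 in either library, DDX58 had a higher level than 59.7% of them in the SMAD4 siRNA library and than 43.3% in the control siRNA library. DHX58 exceeded 86.9% in the SMAD4 siRNA library and 79.2% in the control siRNA library. MAVS exceeded 84.6% in the SMAD4 siRNA library and 85.3% in the control siRNA library. TLR3 and IFIH1 lay between 37.5% and 41.9% in both libraries, in the lower part of the range.

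**Figure D3:**
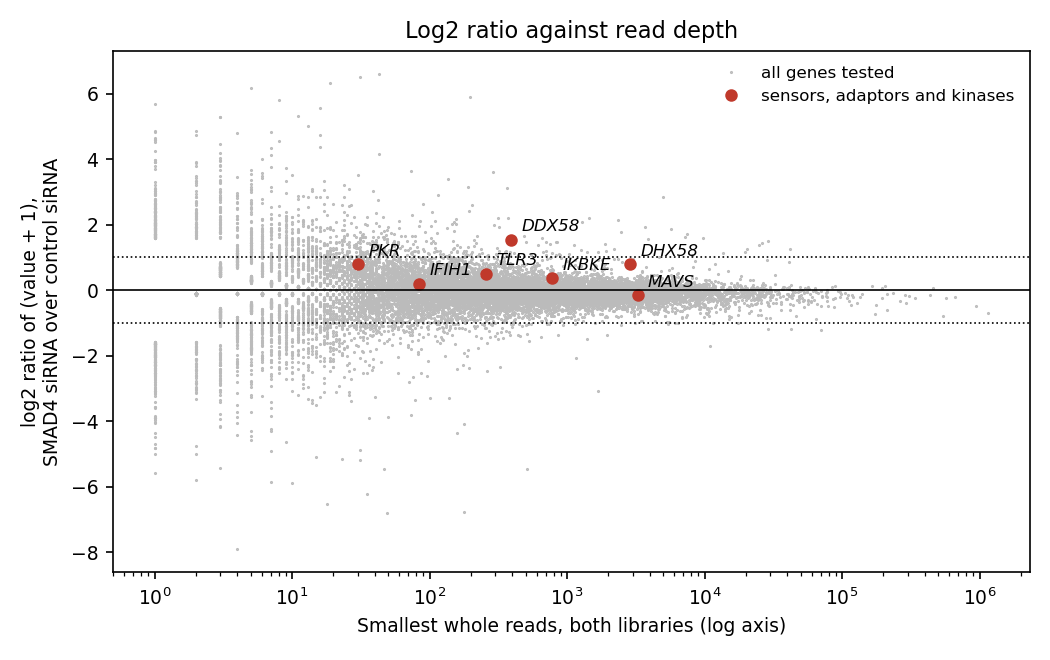
Log2 ratio of (value + 1), SMAD4 siRNA over control siRNA, against the smallest whole reads of both libraries together (log axis), for all 16609 genes tested (grey) and for the measured members with the PKR entry (red); dotted lines mark 2-fold. DDX58 at 1.55 lies past the upper dotted line, and 0.393% of genes with at least 100 reads had a higher log2 ratio. PKR at 0.79, on few reads, lies under that line.

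Other genes of the pathway were spread around a ratio of 1. Over 8 lists of related genes, interferon genes among them, 123 further entries were found, of which 20 were listed at 0 and 102 passed the minimum on the mean value. Of these 102, 4 were higher past 2-fold and 2 were lower past 2-fold, or 3.92% and 1.96%, where 7.17% and 6.68% of all genes tested were. Of the 82 with at least 100 reads, 3 were higher past 2-fold (IRF7, UNC93B1 and EIF2S2), or 3.66%, where 1.32% of all such genes were, and 0 were lower. The median log2 ratio of the 102 was -0.0043, and 50 were above 0, as were 45.5% of all genes tested. An interval lay wholly above 1 for 21, beside 12.7% of all genes tested and 17.6% of those with at least 100 reads. It lay wholly below 1 for 25, where the shares were 21.5% and 32.4%.

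Cofactors that help the RIG-I-like receptors were near equal, at a median log2 ratio of 0.09 (14 measured), with 0 past 2-fold in either direction. An interval lay wholly above 1 for 4 of them and wholly below 1 for 1, beside 12.7% and 21.5% of all genes tested. RNF135, the ubiquitin ligase that activates RIG-I, had a value of 237 in the SMAD4 siRNA library and 184 in the control siRNA library, a ratio of 1.29 (1.08 to 1.54). TRIM25, a further ligase linked to RIG-I, was at 194 in the SMAD4 siRNA library and 153 in the control siRNA library, a ratio of 1.27 (1.04 to 1.54). DDX60, an interferon-induced helicase, was at 72.0 in the SMAD4 siRNA library and 54.5 in the control siRNA library, a ratio of 1.32 (1.13 to 1.54). G3BP1, a stress granule protein, was the fourth, with a ratio of 1.11 (1.04 to 1.19). These ratios are all smaller than that of DDX58, with intervals below its interval. USP15 at 1.51 (0.621 to 3.92) and TRIM65 at 1.33 (0.913 to 1.94) had intervals that include 1, as did ZCCHC3 at 0.778. The deubiquitinase USP4 was lower, at 0.783 (0.727 to 0.843). DHX9 and YWHAE were listed at 0.

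Negative regulators of RNA sensing went both ways, at a median log2 ratio of 0.06 (18 measured), with 6 intervals wholly above 1 and 7 wholly below 1. Of all genes with at least 100 reads, 17.6% had an interval wholly above 1 and 32.4% wholly below 1. SIKE1, which restrains TBK1 and IKK-epsilon, had a value of 19.3 in the SMAD4 siRNA library and 11.7 in the control siRNA library, a ratio of 1.64 (1.04 to 2.63). TAX1BP1, an adaptor that damps NF-kB signals, was at 1.31 (1.08 to 1.60), and DAK, an inhibitor of MDA5, at 1.15 (1.06 to 1.25). The deubiquitinase CYLD was at 201 in the SMAD4 siRNA library and 294 in the control siRNA library, a ratio of 0.684 (0.589 to 0.795). Of the autophagy conjugation partners ATG5 and ATG12, ATG5 was the single member lower by at least 2-fold, on 5 reads in the SMAD4 siRNA library and 20 in the control siRNA library, with a ratio of 0.227 (0.0666 to 0.623). ATG12 had a ratio of 0.723 (0.542 to 0.963). USP3, NLRC5 and SMURF2 were listed at 0.

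In the complex that MAVS and TRIF assemble, the median log2 ratio was -0.0043 (19 measured). TRAF6, a ubiquitin ligase of Toll-like receptor signalling, had a value of 84.4 in the SMAD4 siRNA library and 138 in the control siRNA library, a ratio of 0.613 (0.499 to 0.752). TRAF5 was alike, at 0.623 (0.519 to 0.746), and TAB3, a subunit of the TAK1 kinase complex, was at 0.730 (0.461 to 1.15). TRAF3, a ligase that recruits TBK1, had a ratio of 0.949 (0.855 to 1.05). The NF-kB kinases CHUK and IKBKB were at 1.16 (0.849 to 1.58) and 1.14 (0.979 to 1.34). Of the transcription factors, IRF3 was at 1.12 (1.03 to 1.21). IRF7, which interferon induces, had a value of 430 in the SMAD4 siRNA library and 197 in the control siRNA library. Its ratio of 2.18 (1.91 to 2.50) was past 2-fold. TRADD was listed at 0.

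Interferon genes, the output of the pathway, gave almost no reads. Of 9 entries, 8 were listed at 0 in both libraries: IFNB1, IFNA1, IFN-ALPHA-4, IFN-ALPHA-14, IFN-KAPPA, IFN-OMEGA-4, IFN-DELTA-1 and IFNG. IFNE had 3 reads in the SMAD4 siRNA library and 2 in the control siRNA library. As a listed 0 is no measure of expression here, the tables do not show whether interferon transcripts were made.

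The other Toll-like receptors listed, with their partners, had a median log2 ratio of -0.04 over 13 measured. UNC93B1, the chaperone that carries TLR3 and the other nucleic acid receptors to endosomes, was the one member past 2-fold. Its value was 437 in the SMAD4 siRNA library (474 reads or more) and 194 in the control siRNA library (191 reads or more), a ratio of 2.25 (1.90 to 2.68). TLR9, a receptor for DNA, was at 177 in the SMAD4 siRNA library and 205 in the control siRNA library, a ratio of 0.864 (0.783 to 0.953). Among the kinases that act below MyD88 in Toll-like receptor signalling, IRAK1 was at 1.20 (1.12 to 1.30) and IRAK4 at 0.908 (0.487 to 1.69). TLR4 had 13 reads in the SMAD4 siRNA library and 11 in the control siRNA library, TLR7 had 1 and 2 in that order, and TLR8 was listed at 0.

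Around PKR, the eIF2 kinases and subunits had a median log2 ratio of 0.02 over 18 measured. EIF2S1, the alpha subunit that PKR phosphorylates, had a value of 344 in the SMAD4 siRNA library and 264 in the control siRNA library, a ratio of 1.30 (1.15 to 1.48). EIF2S2, the beta subunit, was at 199 in the SMAD4 siRNA library and 25.5 in the control siRNA library, on 103 and 12 reads in that order. Its ratio of 7.80 (4.28 to 15.6) was larger than that of DDX58. EIF2S3, the gamma subunit, had 1 read in the SMAD4 siRNA library and 0 in the control siRNA library. Of the other eIF2 kinases, EIF2AK1, which heme controls, was at 1.01 (0.923 to 1.10). EIF2AK3, the kinase of the unfolded protein response, was at 0.695 (0.538 to 0.896). PPP1R15B, which directs the phosphatase of eIF2 alpha, was at 0.672 (0.512 to 0.881). NPM1 was at 1.31 (1.22 to 1.40) and EIF2B5 at 0.830 (0.758 to 0.908). DDIT3 was listed at 0.

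The proteins that process and use an siRNA had a median log2 ratio of -0.08 (13 measured), and of 0.037 over the 11 left with both libraries rescaled to equal sums. For 1 entry the interval lay wholly above 1, beside 12.7% of all genes tested and 17.6% of those with at least 100 reads. For 5 it lay wholly below 1, where the shares were 21.5% and 32.4%. Of the 13, 11 had at least 100 reads. DICER1, which cuts double-stranded RNA into siRNA, had a value of 200 in the SMAD4 siRNA library and 258 in the control siRNA library, a ratio of 0.772 (0.691 to 0.864). AGO2, the slicing Argonaute, was at 225 in the SMAD4 siRNA library and 237 in the control siRNA library, a ratio of 0.947 (0.827 to 1.08). SIDT2, a membrane protein of RNA transport, was at 0.772 (0.718 to 0.830). TARBP2, a partner of Dicer and inhibitor of PKR, was at 1.13 (1.04 to 1.24), TSNAX at 1.05 and TSN at 1.04. EIF2C3, an older name of the Argonaute AGO3, was the one entry lower by 2-fold, on 4 reads in the SMAD4 siRNA library and 8 in the control siRNA library, with a ratio of 0.454 and an interval that includes 1. The entry named AGO3 had 14 reads in the SMAD4 siRNA library and 13 in the control siRNA library, a ratio of 0.978. TNRC6B, TNRC6C and SIDT1 were listed at 0.

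**Figure D4:**
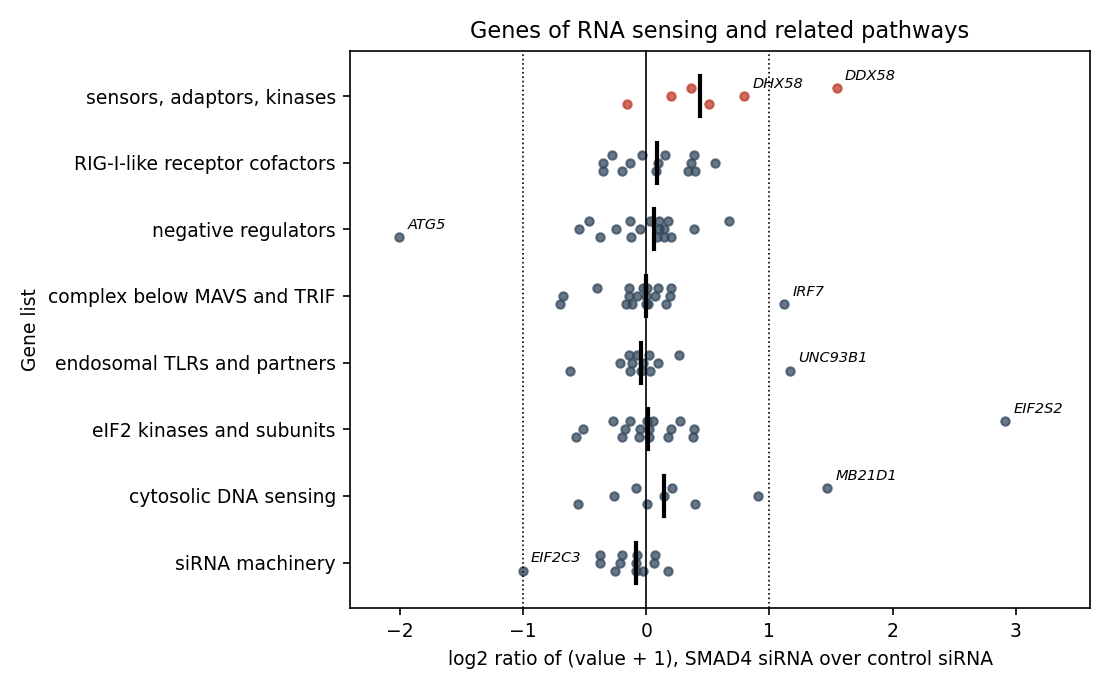
Log2 ratio of (value + 1), SMAD4 siRNA over control siRNA, for each gene tested, by list; each point is a gene entry, black bars are list medians and dotted lines mark 2-fold. The members (red) have a median of 0.43, and the 7 other lists drawn have medians between -0.08 and 0.15; the named genes past a dotted line, besides DDX58, are single members of 6 of those lists.

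Leukocytes are known for strong expression of such sensors, and the markers of this cell type other than CD14 had few reads. PTPRC (CD45) had 2 reads in the SMAD4 siRNA library and 1 in the control siRNA library, and CD3E and CD163 were listed at 0, which is no measure of their expression. Summed over 11 leukocyte markers, values were 586 in the SMAD4 siRNA library and 591 in the control siRNA library. Nearly all of that was CD14, at 566 in the SMAD4 siRNA library and 579 in the control siRNA library. Theca and stroma markers summed to 30651 in the SMAD4 siRNA library and 39915 in the control siRNA library over 7 markers. Nearly all of that was COL3A1, at 28474 in the SMAD4 siRNA library and 37062 in the control siRNA library. All 5 with a value were below a ratio of 1. For 4 of these the interval lay wholly below 1, as for 32.4% of all genes with at least 100 reads. The interval of NR2F2 included 1, and CYP17A1 and INSL3 were listed at 0. Endothelial markers summed to 352 in the SMAD4 siRNA library and 452 in the control siRNA library over 6 markers. Nearly all of that was PECAM1, at 240 and 275 in that order, and ERG, at 97.2 and 167. KDR at a ratio of 2.36 and CLDN5 at 1.36 went the other way on few reads, with intervals that include 1. VWF also had few reads, and TEK was listed at 0. The part of these cells in the sensors' ratios was not tested, and in pooled RNA fewer cells of a type cannot be told apart from less RNA per cell.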

How the data were processed

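RNA of 3 individuals per group was pooled by the authors and sequenced as 1 library per group with an Ion Torrent total RNA kit, per the labels' protocols. The authors deposited upper-quartile scaled RPKM, as the table names say. The aligner, annotation and build were not stated in the labels or headers. Values were used as deposited. Reads were recovered as the smallest whole numbers at a whole length of up to 40000 bases, with divisors of 980 (SMAD4 siRNA) and 890 (control siRNA). All 18428 entries above 0 gave whole reads, within a relative tolerance of 2e-09 or an absolute one of 1e-06. With these divisors 57.0% of the lengths were odd, against 13.4% with both halved and 79.1% with both doubled. At odd lengths both reads were even for 23.5% of entries with these divisors and for 72.8% with both doubled. Halved and doubled divisors were tried on a part of the entries. Reads are lower bounds, true reads being the same whole multiple in both libraries. Ratios have exact Clopper-Pearson 95% intervals and levels exact Poisson ones. These cover counting error only, since PCR copies were not marked by molecular identifiers. Log2 ratios use a pseudocount of 1, which understates the change of low genes, and a mean value of 1 or more was needed for a gene to count as tested. With 1 library per group no test was made.

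Members and gene lists were chosen with earlier results of these data known. Genes named are the members, SMAD4, and of each list the entries at 0 and up to 3 at each end. A gene that this rule takes is not reported here. TRIM25, RNF135, G3BP1, IRF3, TRAF3, EIF2AK1, AGO2, AGO3, EIF2S3, FLNA and POR were chosen after their values were seen, as were the markers. Names came from the tables and from RefSeq gene IDs and synonyms (assembly Sscrofa11.1), which served for naming only. Steps were tested on simulated data. Python 3.11.15, numpy 2.4.6, scipy 1.17.1 and pandas 2.3.3 were used.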

Additional observations from a re-analysis of the deposited data

How the results depend on the processing

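Alternatives were other pseudocounts (0.1 and 5), centring on the median, rescaling both libraries to equal sums, other minimums on values or reads, other fold thresholds and, chosen after seeing the data, counting the PKR entry as EIF2AK2. At 1.5-fold 2 members were higher, DDX58 and DHX58 (13.5% of all genes tested were), and at 4-fold 0 were. The other alternatives gave 1 higher, and 0 were lower under any. The median of the members ran from 0.40 to 0.51. Of 32 recomputed single values, 2 left their counting interval, both after rescaling, with MAVS at -0.04 and SMAD4 at -0.58, and 0 changed sign. Rescaling adds 0.12 to log2 ratios of plain values. It also put the values on a smaller scale, where the unchanged pseudocount of 1 weighs more. On plain rescaled values the SMAD4 ratio was 0.612, inside its interval of 0.497 to 0.639. That of MAVS was 0.972, outside its interval of 0.835 to 0.960. Of 53 recomputed list medians, 6 changed sign. Cytosolic DNA sensing went to -0.04 with at least 100 reads, against 0.15. The complex below MAVS and TRIF went to 0.10 after rescaling and 0.04 after centring, against -0.0043, other Toll-like receptors to 0.04 and 0.0058, against -0.04, and the siRNA machinery to 0.037 after rescaling, against -0.08. Intervals on reads at coding length were not run, as no protein lengths were used here. No paired analysis was possible because each group has 1 library. Depth limits IFIH1 and the PKR entry most.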

Other observations

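The list for cytosolic DNA sensing, which also holds DNA repair genes, had a median log2 ratio of 0.15 over 9 measured, or -0.04 over the 6 with at least 100 reads. MB21D1 (cGAS, the DNA sensor) had a value of 9.48 in the SMAD4 siRNA library and 2.78 in the control siRNA library, on 15 and 4 reads in that order, a ratio of 3.41 (1.08 to 14.1). MRE11A, a DNA end-processing nuclease, was at 2.08 (0.808 to 5.97). TREX1, an exonuclease that removes cytosolic DNA, was at 104 in the SMAD4 siRNA library and 78.7 in the control siRNA library, a ratio of 1.32 (1.05 to 1.67). The DNA repair kinase PRKDC was at 0.668 (0.560 to 0.795), its partner XRCC5 at 0.836 (0.762 to 0.916) and POLR3A, a polymerase subunit, at 0.943 (0.862 to 1.03). SAMHD1 was listed at 0. These ratios are between single libraries and carry no replicate error.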
